A study of Mus musculus with 8 samples.

Results

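The pore subunit genes of voltage-gated calcium channels were examined in the hippocampus of mice that carry a Cre transgene and of wild-type mice. The genes were the rows of the deposited count table named Cacna1a, Cacna1b, Cacna1c, Cacna1d, Cacna1e, Cacna1g, Cacna1h, Cacna1i and Cacna1s, which are 9 of its 46078 rows, and each name had a single row. All 9 passed the filter on low counts, which left 15996 genes. The groups were 4 libraries of T29-1 Cre mice, hemizygous for Tg(Camk2a-cre)T29-1Stl, and 4 libraries of wild-type (WT) mice, all C57BL/6J and 9 weeks old. In this transgene Cre recombinase is under the Camk2a promoter, which is active mainly in excitatory neurons of the forebrain. No floxed allele is named for any group, so the comparison concerns the transgene itself. The labels do not say whether a library came from 1 animal or from several, and p-values therefore measure the spread between these libraries.

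A voltage-gated calcium channel opens when the membrane depolarises and lets calcium into the cell. Its pore subunit is a single long polypeptide that holds the voltage sensors and the selectivity filter, and its gene decides the current type. P/Q-type and N-type channels (Cacna1a and Cacna1b) trigger transmitter release at nerve terminals, and R-type channels (Cacna1e) act at terminals, dendrites and spines. L-type channels (Cacna1c and Cacna1d in neurons, Cacna1s in skeletal muscle) couple activity to transcription and contraction, and T-type channels (Cacna1g, Cacna1h and Cacna1i) open near rest and shape burst firing. Pores other than the T-type assemble with a beta and an alpha2delta subunit encoded by other genes.

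The libraries held 23358289 to 27543742 counts in T29-1 Cre and 23694841 to 30882631 in WT, of which the 9 genes together took 29680 to 49099 per library. In a principal component analysis of log2 CPM (read counts scaled to a common library total), WT replicate 4 scored -33.4 on the leading component, against -0.69 to 8.74 for the other 7 libraries. Markers of excitatory neurons (Slc17a7, Neurod6 and Neurod2) summed to 1949.6 to 2292.5 CPM in T29-1 Cre and 1999.5 to 2231.1 CPM in WT, and those of dentate granule cells to 231 to 337 CPM in T29-1 Cre and 274 to 294 CPM in WT. Markers of the thalamus, a neighbour rich in T-type channels, summed to 45.1 to 58.2 CPM in T29-1 Cre and 44.0 to 50.7 CPM in WT. Of 14 marker lists with 50 genes, 47 of them tested, edgeR's quasi-likelihood test called 0 genes, and the summed levels of the genotypes overlapped for all 14. The choroid plexus sums were 24.5 to 51.0 CPM in T29-1 Cre and 21.7 to 27.0 CPM in WT. Within them Kl averaged 21.7 CPM in T29-1 Cre and 20.7 CPM in WT, and Ttr 11.3 CPM in T29-1 Cre and 2.08 CPM in WT. Ttr was called with no filter on low counts and with the replicate block.

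None of the 9 genes differed between the genotypes past the threshold, a Benjamini-Hochberg adjusted p under 0.05 over all tested genes. In the same test 1 of 15996 genes was called (0.00625%), St6gal2, a sialyltransferase gene that is no channel gene. At an unadjusted p under 0.05 there were 0 of the 9 genes by edgeR, DESeq2 and limma-voom, against 2.43% of all tested genes by edgeR. The 4 libraries of T29-1 Cre overlapped those of WT for all 9 genes, and 1.81% of all tested genes did not overlap. The log2 fold change of T29-1 Cre over WT was above 0 for 6 genes and below 0 for 3, with a median of 0.01 beside -0.00075 for all tested genes. For the 8 genes other than Cacna1s, the 95% intervals of the fold change together ran from 0.872 to 1.25, so that larger changes in either direction lay outside what the spread between these libraries allowed. In bulk tissue, fewer cells of a type and less RNA per cell cannot be told apart.

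**Figure D1:**
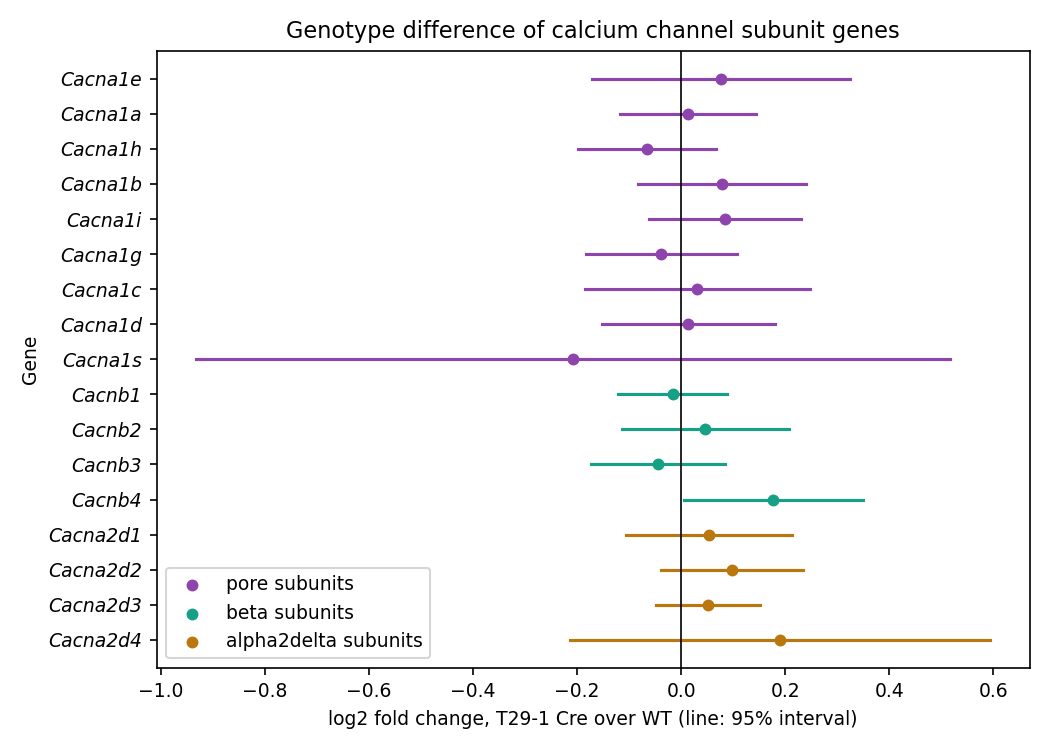
Log2 fold change of T29-1 Cre over WT (x axis) for the 9 pore subunit genes and the 8 beta and alpha2delta subunit genes (y axis), where points are edgeR estimates and lines are 95% intervals (n = 4 libraries per genotype). The interval of every pore subunit gene includes 0, and that of Cacna1s, which had 7 to 19 counts per library, is the widest.

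Levels were compared between genes per length, as reads per kilobase of exon at a fixed sequencing depth (RPKM, which is CPM over the length in kilobases), with the union of all annotated exons as length. Cacna1e, Cacna1a and Cacna1h were the highest, with means over the 8 libraries of 19.98 ± 2.79, 19.6 ± 1.22 and 19.2 ± 1.29 RPKM (SD). Cacna1b followed at 15.8 ± 1.43 RPKM, Cacna1i at 11.9 ± 0.958, Cacna1g at 10.1 ± 0.762, Cacna1c at 7.10 ± 0.859 and Cacna1d at 4.81 ± 0.413 (SD, n = 8 each). Cacna1s was far below these, at 0.067 ± 0.021 RPKM (SD, n = 8). The median tested gene stood at 4.47 RPKM, so 8 of the 9 genes lay above it, Cacna1e at percentile 84.4 of the tested genes and Cacna1d at percentile 51.6, while Cacna1s lay at percentile 0.397.

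Neighbours in this order were compared within libraries by an exact two-sided sign-flip permutation test over 8 libraries, adjusted over the 8 neighbouring pairs, with a smallest possible p of 0.0078. Cacna1e and Cacna1a did not differ beyond their spread (mean log2 difference 0.02 ± 0.19 SD, higher in 6 of 8 libraries, adjusted exact p = 0.883). Nor did Cacna1a and Cacna1h (0.03 ± 0.14, higher in 4 of 8 libraries, adjusted exact p = 0.795). The other 6 pairs did, from Cacna1i over Cacna1g (0.24 ± 0.12, 8 of 8 libraries, adjusted exact p = 0.0125) and Cacna1h over Cacna1b (0.29 ± 0.18, 7 of 8 libraries, adjusted exact p = 0.0208) to Cacna1d over Cacna1s (6.22 ± 0.45, 8 of 8 libraries, adjusted exact p = 0.0125). In the T29-1 Cre libraries alone the order of the means was the same. In the WT libraries Cacna1h came above Cacna1a and Cacna1e, with close means of 19.6, 19.5 and 19.5 RPKM. Cacna1e was at 13.7 RPKM in WT replicate 4 and at 20.1 to 22.6 RPKM in the other WT libraries.

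The choice of length moved some of these values. With the longest annotated transcript as length, Cacna1e averaged 33.8 RPKM over the 8 libraries and Cacna1c 11.4 RPKM, 1.69 and 1.61 times the values above. The difference between Cacna1e and Cacna1a then became 0.25 ± 0.19 (7 of 8 libraries, adjusted exact p = 0.0208) and that between Cacna1a and Cacna1h 0.31 ± 0.14 (8 of 8 libraries, adjusted exact p = 0.0125). Cacna1g, Cacna1i and Cacna1c stood at 12.2, 11.97 and 11.4 RPKM on that scale, and their neighbouring pairs did not differ beyond the spread (adjusted exact p = 0.594 and 0.196). The counts are per gene and do not show which transcripts were present.

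**Figure D2:**
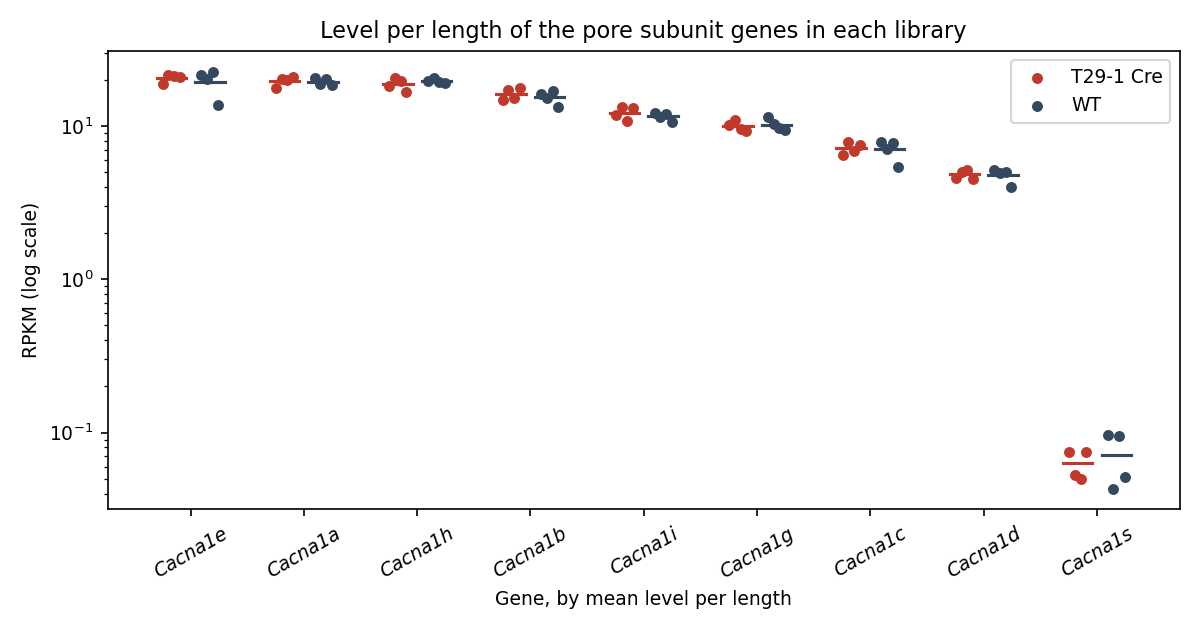
Level per length of each pore subunit gene (RPKM, logarithmic y axis) in the 4 T29-1 Cre libraries (red) and the 4 WT libraries (dark), where points are libraries and bars are means. Genes run from Cacna1e to Cacna1s by their mean over all libraries, and the low WT point of Cacna1e, at 13.7 RPKM, is WT replicate 4.

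By current type, the T-type genes together held the largest share of the summed level per length of the 9 genes. Their share was 37.4 ± 1.74% in T29-1 Cre and 38.6 ± 2.41% in WT (SD, n = 4 each). It sums Cacna1g, Cacna1h and Cacna1i, whereas the P/Q-type, N-type and R-type are a single gene each. Cacna1h, the highest T-type gene, held 17.2 ± 1.4% in T29-1 Cre and 18.4 ± 1.63% in WT. Cacna1e, the R-type gene, held 18.8 ± 0.507% in T29-1 Cre and 17.9 ± 2.33% in WT, Cacna1a 17.98 ± 0.88% in T29-1 Cre and 18.2 ± 0.978% in WT, and Cacna1b 14.8 ± 0.834% in T29-1 Cre and 14.3 ± 0.4% in WT. The L-type genes held 11.04 ± 0.129% in T29-1 Cre and 11.001 ± 0.678% in WT, of which Cacna1s gave 0.058% in T29-1 Cre and 0.066% in WT. No share separated the genotypes, since the ranges of the libraries overlapped for each of the 5 types. With the longest transcript as length the T-type share was 32.4 ± 1.65% in T29-1 Cre and 33.6 ± 2.45% in WT, and that of Cacna1e 24.1 ± 0.547% in T29-1 Cre and 23.05 ± 2.8% in WT.

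**Figure D3:**
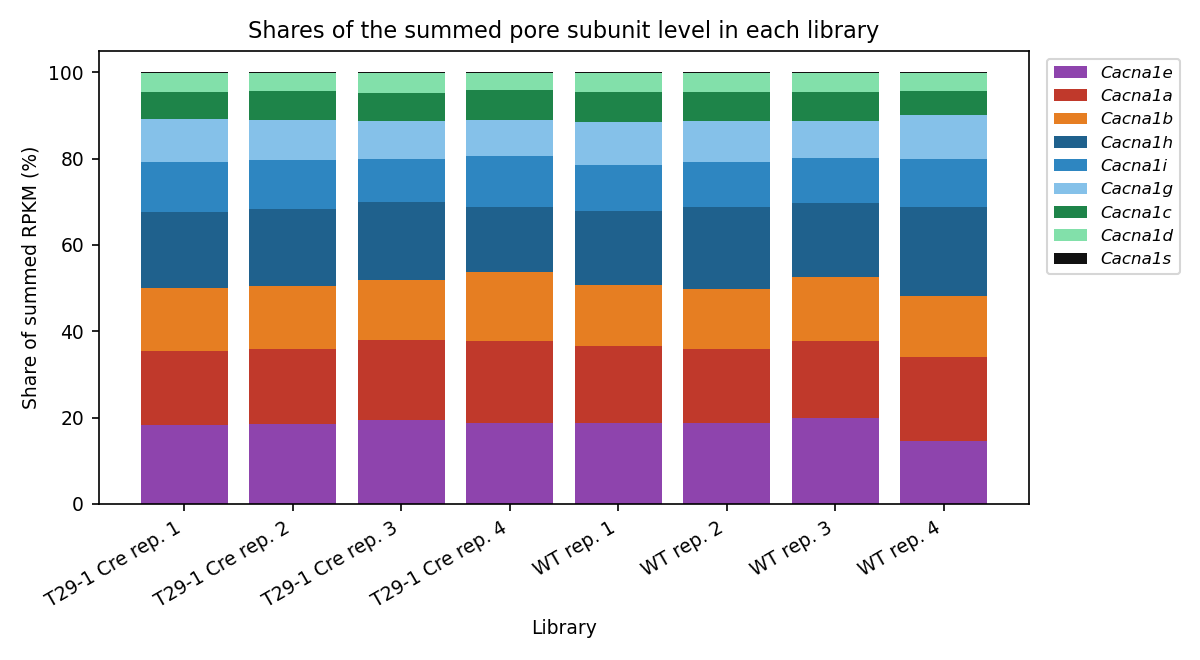
Share of each gene in the summed RPKM of the 9 pore subunit genes (y axis, percent) in each library (x axis), with purple, red and orange for Cacna1e, Cacna1a and Cacna1b, blues for the T-type genes and greens for Cacna1c and Cacna1d. Cacna1e holds 18.3 to 19.4% in the T29-1 Cre libraries and 14.6 to 19.9% in the WT libraries, the lowest being WT replicate 4, and Cacna1s is too small to be seen.

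The region before the start site was examined for sequence features beside these levels. RefSeq start sites in GRCm38.p6 were at hand for 6 of the 9 genes, with 9 windows of 250 bases, among 32851 windows of all genes. The windows below are those of Cacna1b and Cacna1i, both well detected, of Cacna1s, near the floor, and of the 2 starts of Cacna1d, which differ widely in GC content. Capitals mark the GC box GGGCGG and the TATA motif TATAAA, on either strand and with overlaps allowed, and each sequence runs 5′ to 3′ on the strand of its gene.
Cacna1b (chr2:24763153-24763402, minus strand): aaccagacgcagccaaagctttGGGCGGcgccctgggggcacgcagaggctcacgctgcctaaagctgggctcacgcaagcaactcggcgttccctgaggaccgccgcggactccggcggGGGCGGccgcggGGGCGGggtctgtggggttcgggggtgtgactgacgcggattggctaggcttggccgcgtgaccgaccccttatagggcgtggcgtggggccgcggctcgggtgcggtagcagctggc
Cacna1i (chr15:80286988-80287237, plus strand): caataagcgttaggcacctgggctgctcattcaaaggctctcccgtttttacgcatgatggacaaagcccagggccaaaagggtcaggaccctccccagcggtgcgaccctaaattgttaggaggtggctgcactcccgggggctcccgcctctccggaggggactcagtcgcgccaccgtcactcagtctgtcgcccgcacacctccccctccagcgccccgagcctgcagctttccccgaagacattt
Cacna1s (chr1:136052561-136052810, plus strand): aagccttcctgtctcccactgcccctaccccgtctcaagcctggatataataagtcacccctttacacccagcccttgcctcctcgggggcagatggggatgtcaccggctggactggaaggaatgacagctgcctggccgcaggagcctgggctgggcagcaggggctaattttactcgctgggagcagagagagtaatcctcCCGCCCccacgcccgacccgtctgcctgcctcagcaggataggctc
Cacna1d, outer start (chr14:30491157-30491406, minus strand): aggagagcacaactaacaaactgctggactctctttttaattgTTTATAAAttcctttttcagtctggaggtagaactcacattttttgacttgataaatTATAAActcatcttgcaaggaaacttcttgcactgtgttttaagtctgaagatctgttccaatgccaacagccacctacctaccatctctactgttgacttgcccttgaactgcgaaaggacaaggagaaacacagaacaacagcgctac
Cacna1d, inner start (chr14:30353487-30353736, minus strand): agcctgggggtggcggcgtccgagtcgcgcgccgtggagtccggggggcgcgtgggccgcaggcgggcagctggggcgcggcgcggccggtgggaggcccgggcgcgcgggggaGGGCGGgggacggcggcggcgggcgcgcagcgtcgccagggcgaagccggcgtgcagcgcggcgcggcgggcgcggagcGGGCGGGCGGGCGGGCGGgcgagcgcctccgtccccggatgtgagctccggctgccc

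The GC box was present in 4 of the 9 windows (32.7% of all windows) and in 4 of the 6 genes, Cacna1b, Cacna1c, Cacna1d and Cacna1s. The TATA motif was present in 1 window, the outer start of Cacna1d (12.4% of all windows), while CACGTG (6.02%) and TGACGTCA (1.55%) were in 0 of the 9 windows. GC content was 72% with 29 CpG in the window of Cacna1b and 62.4% with 16 CpG in that of Cacna1i, against a median of 52.4% and 6 CpG over all windows. Cacna1s had the same GC content as Cacna1i, 62.4%, with 9 CpG. The outer start of Cacna1d had 39.6% GC with 2 CpG, and the inner start 86.4% with 50 CpG. From the outermost start inward, the windows of Cacna1c had 51.6% GC with 2 CpG, 82.8% with 48 CpG and 50.4% with 5 CpG. The start of Cacna1e in this table lies 158581 bases inside the gene's annotated 5′ end, so its window (52% GC, 6 CpG) need not be that of the main transcript. The counts are per gene and do not tell the starts apart.

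Among the channels of nerve terminals, Cacna1a encodes the P/Q-type pore, the main calcium source for release at many central synapses, and its loss causes ataxia and seizures in mice. Cacna1a (ENSMUSG00000034656.17, plus strand, chr8:84388440-84640246 in GRCm38) was at 200.5, 230.5, 228 and 239.6 CPM in T29-1 Cre replicates 1 to 4, and at 236, 213, 231 and 209.8 CPM in WT replicates 1 to 4. The libraries of the genotypes were interleaved, and the lowest of all was T29-1 Cre replicate 1. The log2 fold change was 0.01 (SE 0.061, 95% interval -0.12 to 0.14, edgeR adjusted p = 0.998, exact permutation p = 0.914).

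Cacna1b encodes the N-type pore, which shares the control of release with the P/Q-type and is the target of omega-conotoxin. Cacna1b (ENSMUSG00000004113.18, minus strand, chr2:24603887-24763152) was at 148, 169.8, 151 and 176 CPM in T29-1 Cre replicates 1 to 4 and at 160.0, 150.1, 167 and 132 CPM in WT replicates 1 to 4. The highest library was T29-1 Cre replicate 4 and the lowest WT replicate 4, with the others between them. Its log2 fold change was 0.08 (SE 0.075, 95% interval -0.08 to 0.24, edgeR adjusted p = 0.998, exact permutation p = 0.457).

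Cacna1e, the R-type pore gene, had the most reads of the family, 8274 to 17491 per library. Cacna1e (ENSMUSG00000004110.16, minus strand, chr1:154390731-154884501) was at 471, 545, 531 and 523 CPM in T29-1 Cre replicates 1 to 4 and at 539, 508, 570.5 and 346 CPM in WT replicates 1 to 4. WT replicates 1 to 3 were interleaved with the T29-1 Cre libraries at the upper end, and WT replicate 4 lay below all others. As T29-1 Cre over WT, its log2 fold change was 0.08 (SE 0.116, 95% interval -0.17 to 0.33, edgeR adjusted p = 0.998, exact permutation p = 0.8), and without WT replicate 4 it was -0.06 (unadjusted p = 0.278).

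Among the L-type genes, Cacna1c encodes the main L-type pore of the forebrain, a source of the calcium signal to the nucleus. Cacna1c (ENSMUSG00000051331.15, minus strand, chr6:118587240-119196418) was at 137, 165, 146 and 159.8 CPM in T29-1 Cre replicates 1 to 4 and at 167, 150.2, 165 and 114 CPM in WT replicates 1 to 4. WT replicate 4 was again the lowest library, and the other WT libraries fell within or just above the range of T29-1 Cre. The log2 fold change was 0.03 (SE 0.1, 95% interval -0.18 to 0.25, edgeR adjusted p = 0.998, exact permutation p = 0.857), and without WT replicate 4 it was -0.08.

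Cacna1d, whose starts are printed above, encodes an L-type pore that opens at lower voltages and supports pacemaking. Cacna1d (ENSMUSG00000015968.17, minus strand, chr14:30039939-30491455) was at 57.9, 63.6, 65.3 and 57.2 CPM in T29-1 Cre replicates 1 to 4 and at 65.3, 62.6, 63.3 and 50.3 CPM in WT replicates 1 to 4. WT replicates 1 to 3 lay close together within the range of T29-1 Cre, and WT replicate 4 lay below all others. As T29-1 Cre over WT, its log2 fold change was 0.01 (SE 0.077, 95% interval -0.15 to 0.18, edgeR adjusted p = 0.998, exact permutation p = 0.771), and -0.06 without WT replicate 4. Of the exon bases of Cacna1d 4.67% overlap Chdh on the other strand, where reads are uncertain if counting ignored strand.

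Cacna1s, whose window is printed above, encodes the L-type pore of skeletal muscle, the voltage sensor of contraction. Cacna1s (ENSMUSG00000026407.17, plus strand, chr1:136052750-136119822) had 13, 8, 9 and 13 counts in T29-1 Cre replicates 1 to 4 and 17, 7, 19 and 8 counts in WT replicates 1 to 4, or 0.412 ± 0.09 CPM in T29-1 Cre and 0.468 ± 0.186 CPM in WT (SD, n = 4 each). The libraries overlapped, and at this depth the fold change of 0.866 had a 95% interval of 0.524 to 1.43 (edgeR adjusted p = 0.998). Of the 5 muscle markers, Ckm and Tnnt3 had at most 1 and 3 counts in any library. Myh1 averaged 0.488 CPM in T29-1 Cre and 0.454 CPM in WT, and Myh4 0.637 CPM in T29-1 Cre and 0.428 CPM in WT, with at most 26 and 23 counts in any library. Acta1, which is expressed outside skeletal muscle too, averaged 4.98 CPM in T29-1 Cre and 5.44 CPM in WT. Of the exon bases of Cacna1s 20% overlap Gm37759, an antisense gene, so part of these few reads is uncertain if counting ignored strand. Cacna1f, the L-type pore gene of photoreceptors, had 2 to 5 counts per library and was not tested.

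Among the T-type genes, Cacna1g encodes a pore known for thalamic bursting. Cacna1g (ENSMUSG00000020866.17, minus strand, chr11:94408391-94474198) was at 102, 110.4, 96.7 and 93.8 CPM in T29-1 Cre replicates 1 to 4 and at 116, 104, 98.1 and 95.5 CPM in WT replicates 1 to 4. The genotypes were interleaved, with T29-1 Cre replicate 4 the lowest and WT replicate 1 the highest. The log2 fold change was -0.04 (SE 0.068, 95% interval -0.18 to 0.11, edgeR adjusted p = 0.998, exact permutation p = 0.657).

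Cacna1h encodes a T-type pore that is blocked by low nickel and found in dentate granule cells and sensory neurons. Cacna1h (ENSMUSG00000024112.16, minus strand, chr17:25374285-25433783) was at 177, 202, 192 and 163 CPM in T29-1 Cre replicates 1 to 4 and at 192, 200.04, 188 and 187 CPM in WT replicates 1 to 4. The WT libraries lay within the range of the T29-1 Cre libraries, which was the wider of the ranges. As T29-1 Cre over WT, its log2 fold change was -0.07 (SE 0.062, 95% interval -0.20 to 0.07, edgeR adjusted p = 0.998, exact permutation p = 0.429). The dentate granule cell markers were lowest in T29-1 Cre replicate 4 (231 CPM), the library where Cacna1h was lowest, and so were the CA1 markers (425 CPM). Other neuron markers were highest of all libraries there, namely those of CA2 and CA3 (248 CPM), excitatory neurons (2292.5 CPM) and GABAergic interneurons (838 CPM). Dentate granule cell markers were highest in T29-1 Cre replicate 3 (337 CPM). Cacna1h was highest in T29-1 Cre replicate 2, where these markers summed to 276 CPM. The part of cell type in the spread of Cacna1h was not tested.

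Cacna1i encodes the slowest T-type pore, known from the reticular thalamus. Cacna1i (ENSMUSG00000022416.15, plus strand, chr15:80287238-80398279) was at 117, 131, 106 and 128 CPM in T29-1 Cre replicates 1 to 4 and at 120.4, 112, 118 and 105 CPM in WT replicates 1 to 4. The ranges overlapped over most of their width. The log2 fold change was 0.08 (SE 0.068, 95% interval -0.06 to 0.23, edgeR adjusted p = 0.998, exact permutation p = 0.343), and without T29-1 Cre replicate 3 it was 0.14 (unadjusted p = 0.0459, edgeR adjusted p = 0.9997, with adjusted p of 0.892 to 0.9999 over its 15 alternatives).

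In the authors' deposited table the 9 genes had log2 fold changes between -0.21 (Cacna1s) and 0.09 (Cacna1i), with an unadjusted p of 0.252 or more. The adjusted p computed here from that table was 1 for each.

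The spread among libraries differed between the genes, and WT replicate 4 was at the low end for most of them. This library was the lowest WT library for 8 of the 9 genes and the lowest of all 8 libraries for 5, beside 35.9% and 27.2% of all tested genes. The deviation of its log2 CPM from the mean of the other WT libraries was -0.64 for Cacna1e, -0.50 for Cacna1c, -0.34 for Cacna1d, -0.27 for Cacna1b and between -0.16 and -0.04 for Cacna1i, Cacna1g, Cacna1a and Cacna1h. The genes with the longest transcripts, Cacna1e at 14921 and Cacna1c at 13162 bases, had the lowest deviations. Cacna1s, with few counts and a longest transcript of 6251 bases, deviated by -0.45. Among all tested genes at 5 CPM or more, the median deviation of WT replicate 4 was -0.31 for 798 genes whose longest transcript reached 8 kb and 0.09 for 6200 genes under 4 kb. The part of transcript length in the values of the 9 genes was not tested. Without WT replicate 4, 2 of the 9 genes had a log2 fold change above 0 and 7 below, with a median of -0.06, and edgeR called 0 of them, with 0 at an unadjusted p under 0.05.

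**Figure D4:**
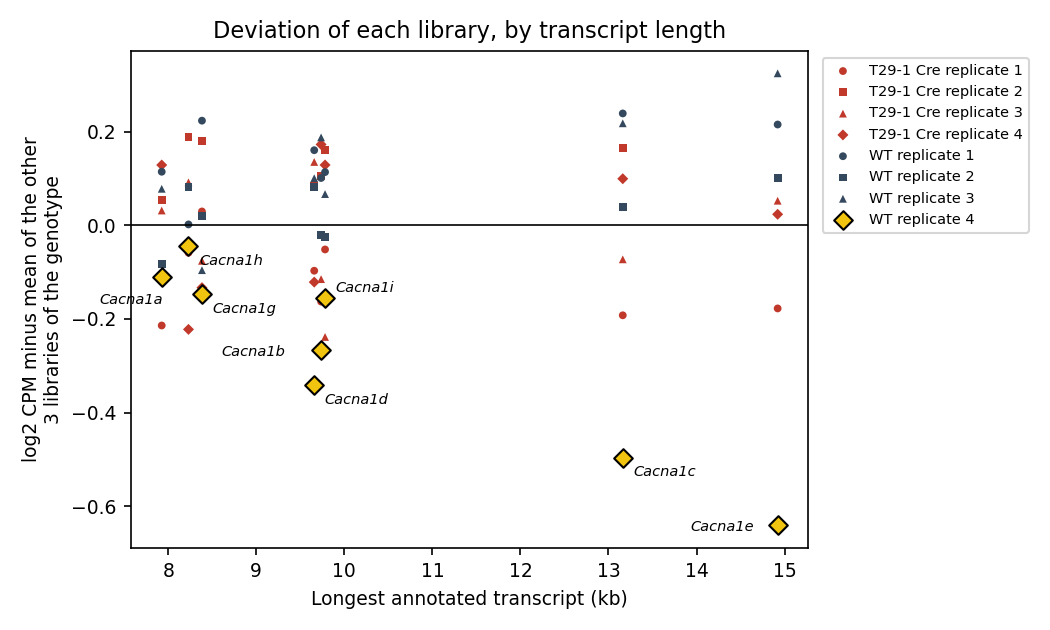
Deviation of each library from the mean of the other 3 libraries of its genotype (y axis, log2 CPM) against the longest annotated transcript (x axis, kb) for the 8 pore subunit genes other than Cacna1s, with WT replicate 4 as named yellow diamonds. WT replicate 4 lies at -0.64 for Cacna1e and -0.50 for Cacna1c, the genes with the longest transcripts, and at -0.04 for Cacna1h.

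The genes whose profile over the 8 libraries was most like that of a pore subunit gene were sought among 11501 other genes at 5 CPM or more, by the root mean square difference of centred log2 CPM. They were Enc1 for Cacna1a (0.0268), Synj1 for Cacna1b (0.0191), Slc24a2 for Cacna1c (0.0344), Cd276 for Cacna1d (0.0234) and Grin2a for Cacna1e (0.0381). For the T-type genes they were Itpkb for Cacna1g (0.0424), Ptrhd1 for Cacna1h (0.0354) and Slc6a17 for Cacna1i (0.0315). The profile of Cacna1s came no closer than 0.201 to any gene at 5 CPM or more, Slc17a8 being the nearest. Its own root mean square spread about its mean was 0.358, at 7 to 19 counts per library. That of the other pore subunit genes was 0.0858 (Cacna1a) to 0.214 (Cacna1e). Whether the nearest genes were closer than chance would give among so many candidates was not tested.

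The genes of the partner subunits were likewise not called. Beta subunits bind the pore inside the cell, aid its transport to the membrane and shift its gating. Cacnb3 and Cacnb1 had the highest levels per length of the 4 genes, with 55.5 ± 2.23 and 35.1 ± 1.03 RPKM in T29-1 Cre, against 57.2 ± 4.95 and 35.5 ± 1.76 RPKM in WT (SD, n = 4 each). Cacnb4 was at 19.4 ± 1.2 RPKM in T29-1 Cre and 17.2 ± 2.15 RPKM in WT, and Cacnb2 at 5.27 ± 0.287 RPKM in T29-1 Cre and 5.10 ± 0.583 RPKM in WT. Cacnb4, the gene mutated in lethargic mice, was at 185, 171, 181 and 161 CPM in T29-1 Cre replicates 1 to 4 and at 161, 159.9, 169 and 126 CPM in WT replicates 1 to 4. Its ranges overlapped, and its log2 fold change of 0.18 (SE 0.08) had an unadjusted p of 0.0434 and an edgeR adjusted p of 0.998. Of its exon bases 16% overlap A430018G15Rik on the other strand. The log2 fold changes of Cacnb1, Cacnb2 and Cacnb3 were -0.02, 0.05 and -0.04. WT replicate 4 was the highest of all libraries for Cacnb1 (172 CPM) and Cacnb3 (258 CPM). It was the lowest of all for Cacnb2 (56.4 CPM) and Cacnb4 (126 CPM).

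Alpha2delta subunits sit outside the cell, raise the number of channels at the membrane and include the targets of gabapentin, Cacna2d1 and Cacna2d2. Cacna2d1 was the highest per length, at 19.3 ± 1.07 RPKM in T29-1 Cre and 18.6 ± 2.19 RPKM in WT, followed by Cacna2d3 at 12.5 ± 0.314 RPKM in T29-1 Cre and 12.1 ± 0.443 RPKM in WT (SD, n = 4 each). Cacna2d2 was at 4.03 ± 0.142 RPKM in T29-1 Cre and 3.76 ± 0.305 RPKM in WT, and Cacna2d4, known from the retina, at 0.175 ± 0.011 RPKM in T29-1 Cre and 0.154 ± 0.034 RPKM in WT. Their log2 fold changes were 0.05 for Cacna2d1, 0.10 for Cacna2d2, 0.05 for Cacna2d3 and 0.19 for Cacna2d4 (SE 0.074, 0.064, 0.046 and 0.188), each at an edgeR adjusted p of 0.998. All 4 values were above 0, with 0 at an unadjusted p under 0.05 beside 2.43% of all tested genes. Cacna2d1 was at 196 CPM in WT replicate 4 and at 231 to 263 CPM in the other WT libraries. For Cacna2d2 these values were 27.5 CPM and 28.3 to 32.6 CPM. For Cacna2d3 and Cacna2d4, WT replicate 4 lay within the range of the other WT libraries.

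In all, 44 further genes of calcium entry were listed by role, of which 40 were tested and 0 called, with 19 values above and 21 below 0 and a median log2 fold change of -0.01. At an unadjusted p under 0.05 by edgeR there were 3 of the 40 (7.5%), Cacnb4, Stac3 and Kcnn3, beside 2.43% of all tested genes. With each library left out in turn there were 0 to 3. Without WT replicate 4 there was 1, beside 463 of 16139 tested genes. Of 7 tested gamma subunit genes, which include the auxiliary subunits of AMPA receptors, those with the smallest p were Cacng5 (0.08, SE 0.101) and Cacng3 (0.05, SE 0.06). Of 11 small GTPases, calmodulins and adaptors that regulate the channels, 10 had a value below 0, beside 8041 of all 15996 tested genes. Stac3, an adaptor of the muscle channel, was at 1.33 ± 0.181 CPM in T29-1 Cre and 1.75 ± 0.281 CPM in WT (log2 fold change -0.41, SE 0.185, edgeR adjusted p = 0.998), and Calm3 had -0.08 (SE 0.058).

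Of 6 active zone genes that hold the channels at release sites, Rims2 (0.17, SE 0.09) and Rims1 (0.10, SE 0.086) had the smallest p. Among 5 genes of potassium channels that calcium entry opens, Kcnn3, a small-conductance channel, was at 26.6 ± 1.57 CPM in T29-1 Cre and 23.7 ± 1.92 CPM in WT (log2 fold change 0.16, SE 0.07, unadjusted p = 0.0358, edgeR adjusted p = 0.998). Its libraries did not overlap between the genotypes, as for 1 of the 40 tested genes, beside 1.81% of all tested genes. Kcnn3 was at 20.9 CPM in WT replicate 4 and 24.3 to 25.0 CPM in the other WT libraries. The lowest T29-1 Cre library was close to these, at 25.5 CPM. Kcnma1, the large-conductance channel, had 0.17 (SE 0.162) and was at 59.0 CPM in WT replicate 4 against 107 to 123 CPM in the other WT libraries. Of the sodium leak channel complex 3 of 5 genes were found in the table by name, with Nalcn at 0.09 (SE 0.07) and Unc80 at 0.12 (SE 0.101). WT replicate 4 was also the lowest of all libraries for Rims1, Rims2, Nalcn and Unc80, at 178, 43.1, 105 and 289 CPM. For other listed genes it was the highest of all libraries, among them Calm2, Kcnmb4, Kcnn1 and Cacng2. These were at 1372, 57.8, 21.6 and 104 CPM in WT replicate 4.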

How the data were processed

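Hippocampal poly(A) RNA of 4 T29-1 Cre and 4 WT libraries was sequenced on 1 lane with a directional kit, per the labels' protocols. The authors deposited whole-number read counts per gene name, unscaled, made with STAR 2.6.1d and featureCounts on GRCm38 per the submitters' processing notes, which also name edgeR 3.11. No source used here gives the strand setting, the annotation release or the rule for multi-mapped reads. The authors also deposited a comparison table of log2 fold changes, signed fold changes (a score), p-values without adjustment, and CPM levels as a mean and on the log2 scale, per the file headers, whose direction was read from St6gal2 (1.85 there and here).

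Counts were analysed in R 4.3.3 with edgeR 4.0.16 (filterByExpr at a minimum count of 10 and total of 15, TMM, glmQLFit and glmQLFTest, no covariate). Benjamini-Hochberg adjustment covered all 15996 tested genes. CPM used TMM-scaled totals, and log2 CPM a prior count of 2. Standard errors were the fold change over the square root of F. Single genes were also tested by exact two-sided permutation over 70 assignments, with a smallest p of 0.0286. RPKM used exon lengths from GENCODE M21 (GRCm38), which gave lengths for 15103 tested genes. Promoter sequences are from RefSeq on GRCm38.p6.

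The members, gene lists and tests were chosen with earlier results of these data known, and 1 marker gene is not reported here. All pore subunit, beta and alpha2delta genes were named, with every called gene of the other lists or, where none was called, the 2 of smallest p, and the nearest profile among genes at 5 CPM or more. Pairs of libraries of a genotype differed by more than counting noise (chi-square over its degrees of freedom 2.66 to 13.6), so they were not taken as copies or splits of the same library. Each was counted as its own sample, although this difference cannot show that libraries came from separate animals. Alternatives were DESeq2 1.42.0, limma-voom (limma 3.58.1), RLE and upper quartile scaling, no filter, a mean of at least 1 CPM, a replicate block, each library left out, and other lengths and scalings for the levels. The scripts were tested on simulated data.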

Additional observations from a re-analysis of the deposited data

Results flagged for a closer look

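Among the 9 pore subunit genes, each genotype's 4 libraries were searched for a value distant from the remaining 3, which made 18 searches. A distant value turned up in 1 of them, and chance alone would flag about 1 in 20. Cacna1d was at 5.66 log2 CPM in WT replicate 4, while the other WT libraries lay between 5.97 and 6.03, a gap of 0.842 of the whole range.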

How the results depend on the processing

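In each of 15 alternatives 0 of the 9 pore subunit genes and 0 of the other calcium channel genes were called (14 alternatives for Cacna1s, which a mean of at least 1 CPM removed). Over all genes 1 gene was called in 13 of the alternatives, and 2 with no filter on low counts and with the replicate block, St6gal2 and Ttr both times. The cause was not tested. Of 134 fold changes of the 9 genes under alternatives, 124 kept their direction and 10 were reversed, all 10 on leaving out a library. Leaving out each library in turn, the log2 fold changes ran from -0.0194 to 0.0639 for Cacna1a, -0.0773 to 0.0884 for Cacna1c, -0.0627 to 0.0521 for Cacna1d, -0.0586 to 0.157 for Cacna1e and -0.0844 to 0.02 for Cacna1g. Those of Cacna1b (0.0171 to 0.127), Cacna1i (0.0433 to 0.141), Cacna1h (-0.115 to -0.0131) and Cacna1s (-0.378 to -0.0331) kept their sign. The reversed values were those of Cacna1a without T29-1 Cre replicate 4, WT replicate 2 or WT replicate 4, of Cacna1c without T29-1 Cre replicate 2 or WT replicate 4, of Cacna1d without T29-1 Cre replicate 2, T29-1 Cre replicate 3 or WT replicate 4, of Cacna1e without WT replicate 4 and of Cacna1g without WT replicate 1.

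The replicate block called 0 pore subunit genes and 2 genes in all. Same-numbered libraries did not deviate together (correlations of -0.07, 0.05, 0.02 and -0.03), so the numbers were not taken to pair the samples. In the order of levels 6 of 8 neighbouring pairs passed in the main setting and in 9 of the 10 alternatives. Without WT replicate 4 there were 7, where Cacna1e over Cacna1a passed too (adjusted exact p = 0.0357). The pairs were not always the same. With the longest transcript as length, Cacna1e over Cacna1a and Cacna1a over Cacna1h passed, while Cacna1g over Cacna1i and Cacna1i over Cacna1c did not. Without T29-1 Cre replicate 4, Cacna1h ranked above Cacna1a. Depth limits Cacna1s most, at 7 to 19 counts per library.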
